A study of Mus musculus with 12 samples.

Results

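Mitochondrial ribosomal protein genes were taken as every autosomal, protein-coding H3K4me3 peak whose assigned gene name starts with Mrpl or Mrps, which gave 66 of the 15848 peaks of the table, assigned to 65 genes. The rule used gene names only and no measured value. Mrpl45 was the only gene with 2 such peaks. All 66 peaks passed the filter on low values, a mean of at least 10, which 15039 peaks of the table passed.

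H3K4me3, trimethylation of lysine 4 of histone H3, marks the promoters of genes that are transcribed or poised for it, and was measured by ChIP–seq in nuclei sorted from adult mouse hearts as PCM1-positive, a mark of cardiomyocyte (CM) nuclei. The study compared 3 libraries from Cpt1b cKO hearts (αMHC-Cre pos/+; Cpt1b fl/fl) with 3 from CtrlCre hearts, which carry the same Cre transgene and no floxed Cpt1b. Cpt1b encodes the muscle form of carnitine palmitoyltransferase 1, which brings long-chain fatty acids into mitochondria, and in the cKO it is lost in CMs from embryonic stages on because the αMHC promoter drives Cre. The libraries are labelled adult, with no age in weeks, and nothing in the labels says which came from separate animals, so p-values measure the spread between these libraries only. Values are sequencing signal per peak, scaled between libraries by the authors. A change of the same proportion at all peaks would not appear in them. In sorted nuclei a change in the share of cells that carry a mark and a change in the mark per cell cannot be told apart.

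The mitochondrial ribosome translates the few proteins encoded by mitochondrial DNA, all of them subunits of the respiratory chain and the ATP synthase. Its RNAs come from mitochondrial DNA, whereas its proteins are encoded in the nucleus, made in the cytosol and imported. The large subunit forms peptide bonds and the small subunit reads the messenger RNA. Many of the proteins have bacterial counterparts, and others were added during evolution of the eukaryotic cell. The heart, which draws its energy from oxidative phosphorylation, depends on them, and inherited defects of several cause cardiomyopathy in humans.

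The whole numbers behind the scaled values summed over peaks to between 763133 (CtrlCre replicate 2) and 2766416 (Cpt1b cKO replicate 2), so counting error at a peak of median level would be 8.33 to 15.6% if each unit were 1 read. Peaks were present at 9 of 9 CM marker genes, at 1 of 7 fibroblast, 1 of 6 endothelial and 2 of 4 mural markers, and at 0 of 5 leukocyte and 0 of 2 mesothelial markers. The summed CM marker signal was 7635 to 9268 in CtrlCre and 5647 to 8285 in Cpt1b cKO, and its part in the results was not tested. The wide peak assigned to Cpt1b itself (chr15:89421996-89431151) read 428, 407 and 436 in CtrlCre against 572, 689 and 568 in Cpt1b cKO (log2 difference 0.52 ± 0.10 SE, limma adjusted p = 0.00357). The mark summed over this peak does not check the loss of the floxed exons.

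Promoter sequence was read for the members from RefSeq windows on GRCm38.p6, which run from 250 bases before to 50 bases after the start. Of the 65 genes, 57 matched by symbol, and Mrpl15, Mrpl19, Mrpl38, Mrpl4, Mrpl54, Mrps28, Mrps34 and Mrps35 had no entry. The start of the window lay inside the member peak for 55 of the 57, and within 100 bases of the authors' gene start for 46. The stretches printed here are the 200 bases before the start, 5′ to 3′ on the strand of the gene. Each lay inside the peak and overlapped no annotated exon. They belong to genes described below (Mrpl34, Mrpl45, Mrpl58, Mrps36) or with an opposite-strand coding start within 1000 bases (Mrpl2, Mrpl41, Mrpl48). Capitals mark a match to any of the motifs searched, on either strand.
Mrpl2, chr17:46646029-46646228, plus strand: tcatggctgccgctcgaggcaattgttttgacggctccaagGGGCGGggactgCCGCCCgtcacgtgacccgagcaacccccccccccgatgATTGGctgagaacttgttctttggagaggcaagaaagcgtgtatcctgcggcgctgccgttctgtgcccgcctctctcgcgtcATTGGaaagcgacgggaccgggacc
Mrpl41, chr2:24975099-24975298, minus strand: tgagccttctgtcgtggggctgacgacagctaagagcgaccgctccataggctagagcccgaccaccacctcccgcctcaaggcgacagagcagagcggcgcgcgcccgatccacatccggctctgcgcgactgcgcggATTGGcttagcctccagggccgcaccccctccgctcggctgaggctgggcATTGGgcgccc
Mrpl48, chr7:100608302-100608501, minus strand: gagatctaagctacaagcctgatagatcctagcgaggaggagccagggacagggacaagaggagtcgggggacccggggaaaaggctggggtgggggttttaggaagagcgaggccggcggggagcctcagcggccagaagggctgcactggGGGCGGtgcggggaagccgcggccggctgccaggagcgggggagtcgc
Mrpl45, chr11:97315516-97315715, plus strand: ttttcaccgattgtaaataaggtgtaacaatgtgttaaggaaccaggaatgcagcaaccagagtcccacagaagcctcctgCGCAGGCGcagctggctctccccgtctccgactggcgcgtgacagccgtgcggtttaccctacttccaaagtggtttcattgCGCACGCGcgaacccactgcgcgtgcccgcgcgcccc
Mrpl34, chr8:71464726-71464925, plus strand: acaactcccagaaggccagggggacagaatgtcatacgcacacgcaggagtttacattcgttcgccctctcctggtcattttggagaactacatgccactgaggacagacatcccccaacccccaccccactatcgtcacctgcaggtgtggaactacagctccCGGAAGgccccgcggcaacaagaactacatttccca
Mrpl58, chr11:115403552-115403751, plus strand: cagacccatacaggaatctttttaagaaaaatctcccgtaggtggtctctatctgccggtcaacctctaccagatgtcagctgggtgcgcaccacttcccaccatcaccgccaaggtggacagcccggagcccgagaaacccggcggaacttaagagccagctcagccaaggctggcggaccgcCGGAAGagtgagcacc
Mrps36, chr13:100744660-100744859, minus strand: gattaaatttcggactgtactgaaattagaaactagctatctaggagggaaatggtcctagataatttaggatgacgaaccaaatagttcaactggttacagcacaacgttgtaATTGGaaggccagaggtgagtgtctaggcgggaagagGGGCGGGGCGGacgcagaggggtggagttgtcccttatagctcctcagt

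NRF1 and GABP, an ETS factor, are regulators of nuclear genes for mitochondria, and YY1 binds near the starts of many housekeeping genes. Genes with a tested autosomal protein-coding peak were counted only where they matched a window by symbol, which left 8134. The ETS core CGGAAG was found in 31 of the 57 member windows (54.4%), in 31.7% of the windows of these 8134 genes and in 16.9% of all 32851 windows. Its longer form CCGGAAGT, which contains the core, stood in 7 members (12.3%; 8.36% of genes with a peak, 3.89% of all windows). The NRF1 core CGCANGCG was in 15 members (26.3%; 18.2% and 8.21%), and its exact form CGCATGCG, a subset of it, in 6 (10.5%; 4.09% and 1.87%). The YY1 letters AAGATGGC were in 9 members (15.8%; 4.51% and 2.75%). The windows of 49 cytosolic ribosomal protein genes held the ETS core more often than the members (69.4%), likewise its longer form (20.4%), and the NRF1 core (20.4%), its exact form (4.08%) and the YY1 letters (6.12%) less often, with no test of these shares. In all, 40 of 57 member windows held at least 1 of the ETS core, the NRF1 core and the YY1 letters, and 17 held none of them. These counts include an ETS core of Mrpl20 and the YY1 letters of Mrpl36, whose windows lay outside their peaks.

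The other motifs searched gave another picture. The GC box GGGCGG was in 25 members (43.9%), below the 68.9% of genes with a peak and above the 35.7% of all windows, and the member windows were less rich in CG dinucleotides (median 18 per window, against 22 for genes with a peak and 7 for all windows). CCAAT was in 24 members (42.1%; 38.4% and 37.4%), TATAAA in 4 (7.02%; 6.47% and 13.6%), and TCAAGGTCA, the letters of an oestrogen-related receptor site, in 0 of 57 (0.283% and 0.423%). Each motif was searched on both strands, and a match is a description of the letters only. In the printed stretches, Mrpl45 held the NRF1 core at 2 places, Mrpl34 and Mrpl58 held an ETS core close to the start, and Mrpl2 and Mrpl41 each held CCAAT at 2 places, written in the complement as ATTGG.

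Of the 66 peaks, 64 (97.0%) covered the start of their gene as annotated by the authors. The share was 89.9% of all tested autosomal protein-coding peaks, 96.8% of proteasome peaks and 97.0% of the peaks of other mitochondrial translation genes. The centre lay inside the gene in 53 of the members (80.3%; 83.1% of protein-coding peaks), at a median of 240 bases past the start. The exceptions were the Mrpl38 peak, whose edge stopped 49 bases short of the annotated start, and the second Mrpl45 peak (chr11:97309604-97311587), whose centre stood 5121 bases upstream of the start and which covered no protein-coding start. Peak positions are given on mm10, the build of the table.

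Mean values over the 6 libraries ran from 70.3 to 443, with a median of 157 against 102 for all tested peaks. Widths ran from 821 to 4059 bases, with a median of 1483 against 1514. Divided by width, the level had a median of 108 per kb against 60.5 for all tested peaks and 70.8 for protein-coding ones. The ratio of its upper to its lower quartile was 1.36 in the members, 1.96 in protein-coding peaks and 2.44 in all tested peaks. This was not particular to the members: the ratio was 1.36 for cytosolic ribosomal proteins, 1.40 for the other genes of mitochondrial translation described below, 1.44 for proteasome subunits, 1.47 for nuclear subunits of oxidative phosphorylation (OXPHOS) and 1.60 for tested peaks in the members' range of mean values. Level per kb was close between subunits, with medians of 108 in the 44 large subunit peaks and 107 in the 21 small subunit peaks, or by origin, with medians of 108 both in the 40 peaks of genes with a bacterial counterpart and in the 25 of genes without one. No test was made across peaks, which are not replicates.

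The study grouped peaks by width into broad, medium and narrow. With limits at the 25th and 75th percentile of tested peaks (1030 and 2222 bases), 51 members (77.3%) were of medium width, 10 (15.2%) broad and 5 (7.58%) narrow. Among all tested protein-coding peaks 27.9% were broad and 16.7% narrow. Width and level rose together over the 66 members (Spearman's rho 0.70, a description across peaks that share their 6 libraries), and over all tested peaks (0.77).

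**Figure D1:**
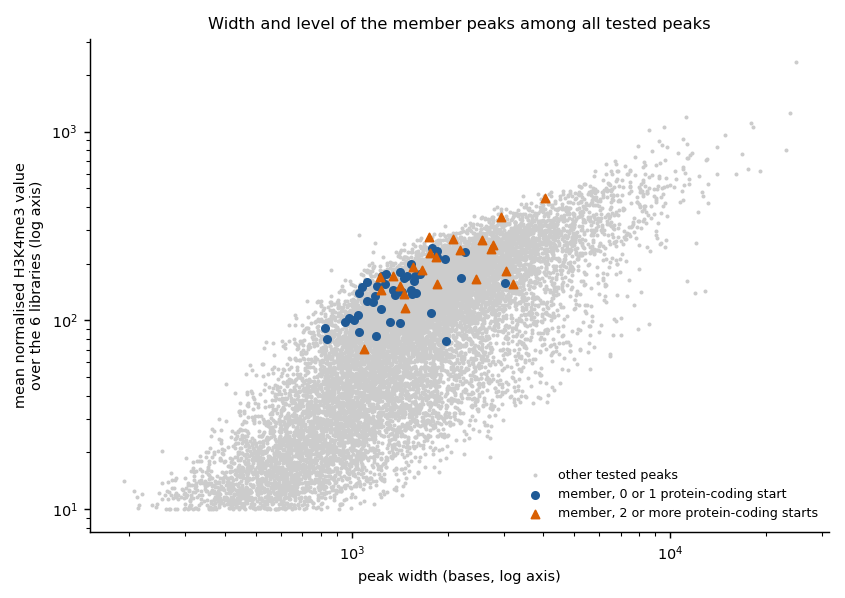
Peak width in bases (x axis, log) against the mean normalised H3K4me3 value over the 6 libraries (y axis, log) for all tested peaks (grey) and the 66 members, split by whether the peak holds 2 or more protein-coding starts (orange triangles, 23 peaks) or fewer (blue circles, 43 peaks). The members lie in the upper part of the cloud at a given width, between 821 and 4059 bases, and most of the widest are orange.

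Among the members with the highest levels, Mrpl47 (chr3:32735363-32739421), a large subunit protein, had the widest and highest peak, at 465, 493 and 439 in CtrlCre and 424, 434 and 401 in Cpt1b cKO. Mrps34 (chr17:24894332-24897271), a small subunit protein without a bacterial counterpart, followed with 346, 358 and 337 against 371, 367 and 348. Mrpl32 (chr13:14612317-14614070), a large subunit protein that is processed after import, read 276, 286 and 284 against 269, 299 and 241 and had the highest level per kb of all members, 157. All 3 of these peaks also cover the start of another protein-coding gene.

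At the other end, Mrpl54 (chr10:81266220-81267315) read 75, 79 and 74 in CtrlCre and 69, 67 and 58 in Cpt1b cKO. The upstream Mrpl45 peak, which has no start of its own, read 61, 93 and 97 against 81, 73 and 63, and had the lowest level per kb, 39.3. The peak at the Mrpl45 start (chr11:97315209-97316528) read 104, 72 and 94 against 95, 116 and 106. Its 2 peaks thus had log2 differences of opposite sign, -0.19 ± 0.18 and 0.24 ± 0.15 (SE), and the groups overlapped at both. The narrowest peaks belonged to Mrpl38 (821 bases), Mrpl33 (838 bases) and Mrpl22 (952 bases), all large subunit proteins.

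Neighbouring starts on the opposite strand were common among these genes. A protein-coding gene on the opposite strand started within 1000 bases of the start of 22 of the 66 members (33.3%), against 10.1% of tested protein-coding peaks, and within 300 bases of 17 (25.8% against 7.13%). In 14 of the 22 the neighbour started upstream and ran the other way, and in 8 the starts overlapped, the neighbour starting inside the member gene. Counted by peak, 23 members (34.8%) held the starts of 2 or more protein-coding genes, against 11.1% of tested protein-coding peaks, 11.8% of cytosolic ribosomal protein peaks and 26.9% of peaks of OXPHOS subunits. At these peaks the mark cannot be divided between the genes.

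Several neighbours also act in mitochondria. Mrpl47 is paired with Ndufb5 and Mrpl36 with Ndufs6, both subunits of respiratory complex I, Mrps12 shares its promoter with Sars2, the mitochondrial seryl-tRNA synthetase, and Mrpl46 shares its promoter with Mrps11, so that 1 peak serves proteins of both subunits. Others do not: Mrpl32 lies beside Psma2, a proteasome subunit, Mrps18c beside Helq, a DNA helicase, Mrpl2 beside Klc4, a kinesin light chain, and Mrpl48 beside Rab6a, a regulator of Golgi traffic. Pnpla7 starts 935 bases upstream of Mrpl41, inside the same peak.

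**Figure D2:**
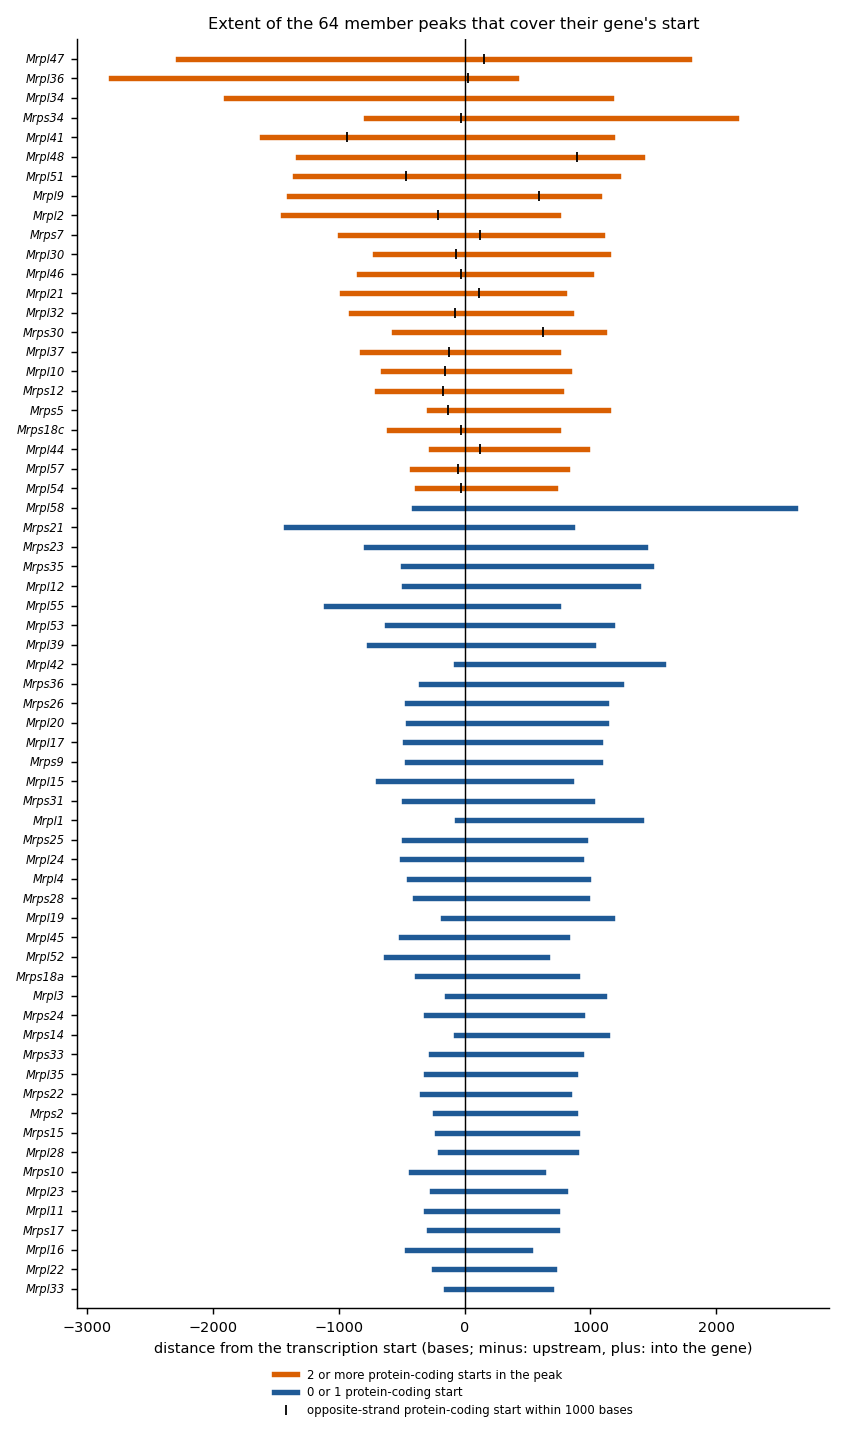
Extent of the 64 member peaks that cover their gene's start, as distance in bases from that start (x axis, minus upstream, plus into the gene), 1 bar per peak sorted by width within each class. Orange bars hold 2 or more protein-coding starts and reach further upstream, as in Mrpl36 (2804 bases) and Mrpl47 (2274 bases), and black ticks mark opposite-strand starts within 1000 bases.

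The 23 peaks with several coding starts had a median width of 1844 bases and a median level of 185, against 1363 bases and 145.5 in the other 43. Broad peaks made up 8 of the 23 and 2 of the 43. Per kb the classes were alike, with medians of 108 and 107. The same was seen over all tested protein-coding peaks in width (2091 against 1585 bases) and level (192 against 117), whereas level per kb differed there (87.3 against 68.5). The 2 broad members without a second coding start were Mrpl58 and Mrps21, named here after their widths were seen.

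Because each peak is assigned to 1 gene, the rule leaves out some genes of the family. GENCODE vM21 holds 78 protein-coding Mrpl and Mrps genes, and 13 of them had no peak under their own name. All 13 start inside a peak that is assigned to another gene: Mrps11 in the peak of Mrpl46, Mrpl43 in that of Peo1 (the mitochondrial DNA helicase Twinkle), Mrpl49 in that of Fau, Mrps18b in that of Ppp1r10, Mrpl18 in that of Tcp1, Mrpl40 in that of Hira, and the others in those of Zfp189 (Mrpl50), Eme1 (Mrpl27), Ptcd2 (Mrps27), Dnajc9 (Mrps16), Mtbp (Mrpl13), Slc5a3 (Mrps6) and Tmem63b (Mrpl14). Each of the 78 genes thus had an annotated transcript start in an H3K4me3 peak in these CM nuclei, or in the case of Mrpl38 next to one. For Mrpl20, Mrpl23, Mrpl33, Mrpl35 and Mrps24 the gene start of GENCODE vM21, that of the outermost transcript, lay outside the peak. Of the 78 genes, 36 started in a peak with 2 or more coding starts. These 13 peaks had mean values of 99.2 to 345 and log2 differences of -0.20 to 0.24 between the genotypes. Of the 13, the peak over Mrps16 alone had an unadjusted limma p under 0.05, against 5.84% of all tested peaks higher and 6.98% lower (243, 246 and 208 in CtrlCre, 293, 283 and 250 in Cpt1b cKO, log2 difference 0.24 ± 0.10 SE, adjusted p = 0.288).

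The comparison of the genotypes asks whether loss of fatty acid oxidation in CMs alters the promoter mark of the genes for the mitochondrial ribosome. No member peak passed the test: 0 of 66 were higher and 0 of 66 lower in Cpt1b cKO at an adjusted p under 0.05 (limma, Benjamini-Hochberg over all tested peaks), where 1.11% of all tested peaks were higher and 1.82% lower. The study itself called peaks without adjustment. At an unadjusted p under 0.05, 0 of 66 were higher and 0 of 66 lower as well, against 5.84% and 6.98% of all tested peaks. The member nearest to a call was Mrpl23 (limma adjusted p = 0.403). Leaving out 1 library moved the unadjusted counts to at most 3 higher and 2 lower, both without CtrlCre replicate 1, and the adjusted counts stayed at 0.

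Relative to the other peaks, the differences were small as well as uncalled. The study reported less total H3K4me3 in Cpt1b cKO CM nuclei by western blot. A loss spread evenly over peaks cannot be seen in values scaled between libraries. The median log2 difference, Cpt1b cKO minus CtrlCre on the log2(value + 1) scale, was 0.008 over the members and 0.006 over all tested peaks. Its range was -0.30 (Mrpl23) to 0.28 (Mrps33), and its SD over peaks was 0.13 against 0.35 for all tested peaks. The SD was 0.21 for tested peaks in the members' range of mean values. It was 0.12 for OXPHOS peaks, 0.11 for proteasome peaks, 0.19 for the other translation genes and 0.23 for cytosolic ribosomal proteins. A small spread was thus not particular to the members. The 95% interval of the difference lay within 1.5-fold in either direction for 64 of 66 members (97.0%) and within 2-fold for all 66. Over all tested peaks 61.7% of intervals lay within 1.5-fold, and over the 9238 tested peaks in the members' range of mean values 89.6% did.

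**Figure D3:**
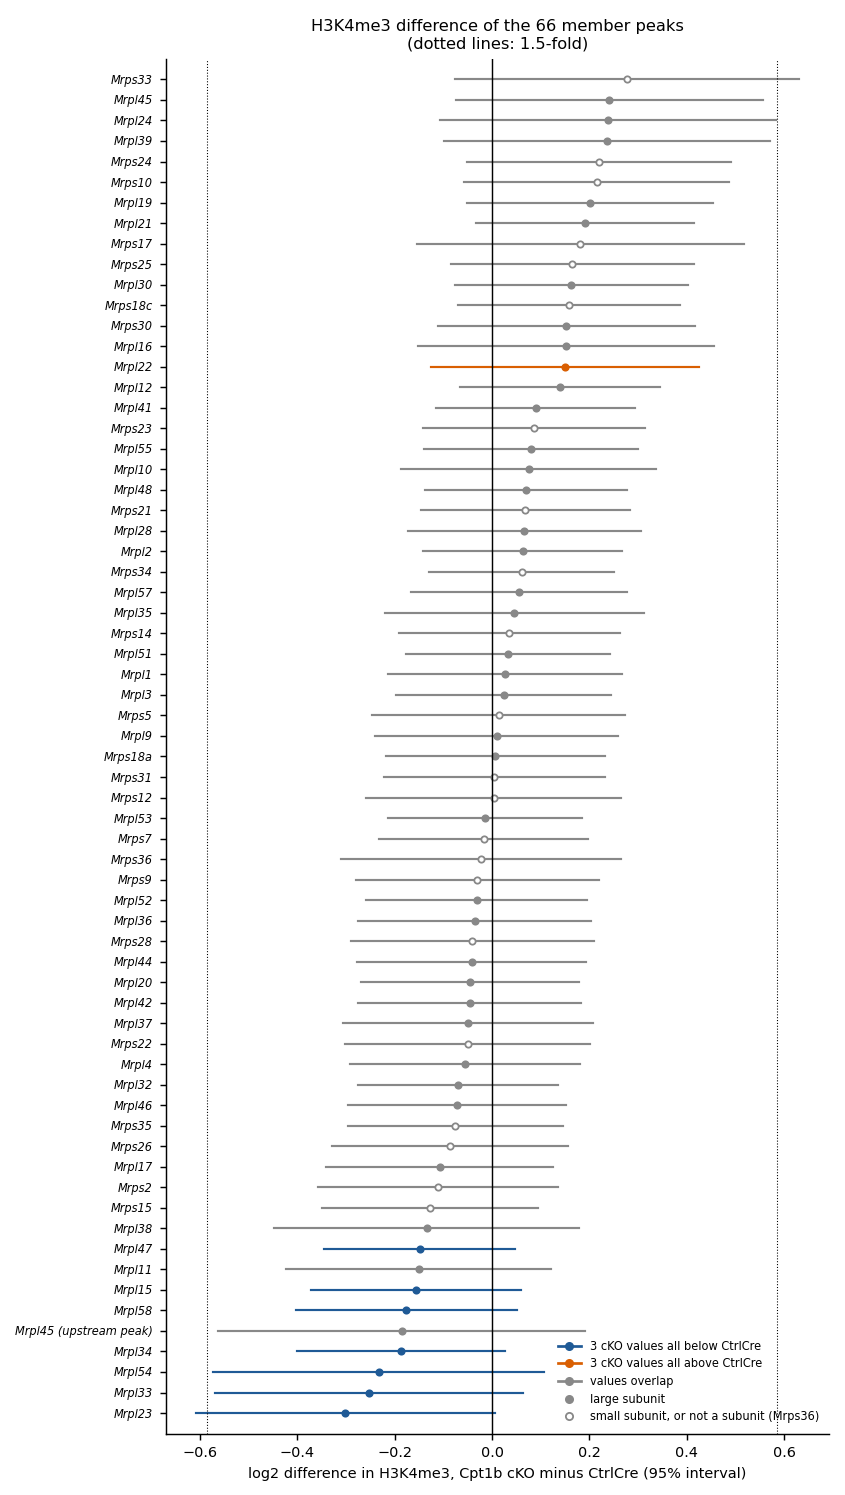
The log2 difference in H3K4me3, Cpt1b cKO minus CtrlCre, with its 95% interval (x axis) for each of the 66 member peaks (y axis, sorted), filled points for large subunit proteins and open points for small subunit proteins and Mrps36. Every interval spans 0, and those of Mrpl23 and Mrps33 alone pass a dotted 1.5-fold line.

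At some members all 3 values in one genotype lay beyond those of the other. Of the 66 members, 1 was higher, Mrpl22, where 7.80% of all tested peaks were separated in that direction. Another 7 were lower, where 8.46% of all tested peaks were. All 8 belong to large subunit proteins, as do 44 of the 66 member peaks. This was seen after the 8 were picked by their values and was not tested. Since 3 libraries against 3 can reach no smaller p than 0.1 in an exact permutation test, such a separation does not by itself pass a threshold of 0.05.

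Among the lower ones, Mrpl23 (chr7:142532755-142533808), which lies at the exit of the peptide tunnel, read 84, 102 and 104 in CtrlCre and 81, 73 and 80 in Cpt1b cKO. The log2 difference was -0.30 ± 0.15 (SE), and the upper cKO value and the lower CtrlCre value were 3 units apart. Mrpl33 (chr5:31613790-31614627) read 89, 79 and 94 against 73, 77 and 69 (log2 difference -0.25 ± 0.15, limma adjusted p = 0.533). Mrpl34 (chr8:71463062-71466125) read 190, 198 and 193 against 185, 163 and 163 (-0.19 ± 0.10, adjusted p = 0.473). The gap between the groups was 2 units at Mrpl33 and 5 units at Mrpl34.

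Mrpl47 fell in this class too, with a log2 difference of -0.15 ± 0.09 (SE), as did Mrpl54 with -0.23 ± 0.16. Mrpl15 (chr1:4784894-4786425) read 203, 235 and 194 in CtrlCre and 182, 190 and 193 in Cpt1b cKO, so that the groups were 1 unit apart. Mrpl58 (chr11:115403354-115406378), a peptidyl-tRNA hydrolase built into the large subunit that frees stalled ribosomes, read 171, 165 and 167 against 159, 153 and 134 (-0.18 ± 0.11). Mrpl22 (chr11:58171422-58172373), the 1 higher member, read 92, 98 and 90 against 105, 107 and 99 (0.15 ± 0.13), again 1 unit apart. None of these 8 differences passed the limma test, with adjusted p from 0.403 (Mrpl23) to 0.722 (Mrpl22).

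**Figure D4:**
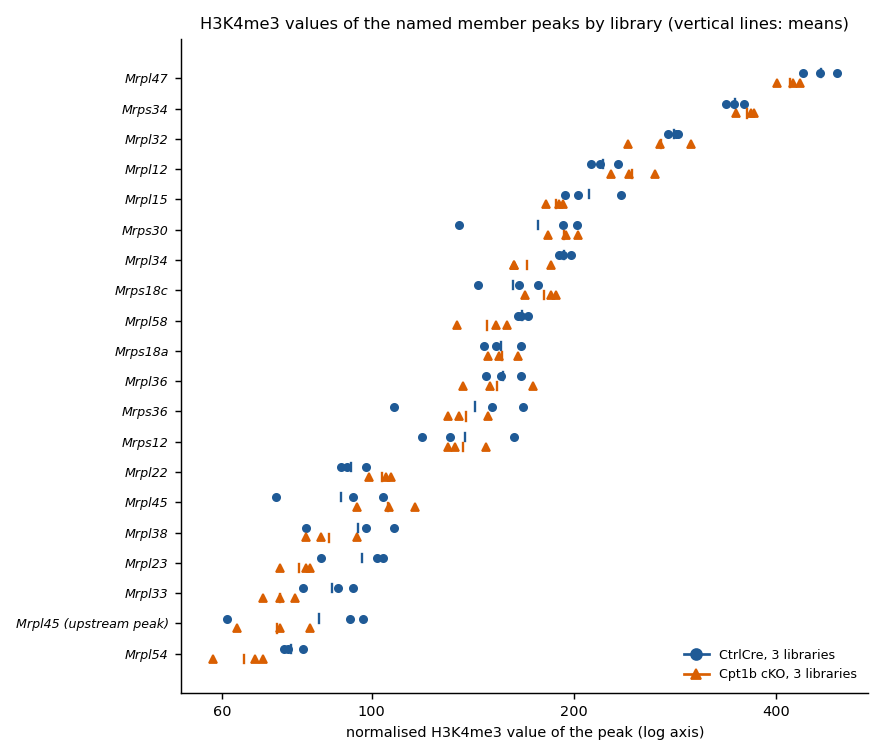
Normalised H3K4me3 value (x axis, log) in each library for the 20 peaks described by name (y axis, ordered by level), with CtrlCre as blue circles, Cpt1b cKO as orange triangles and vertical lines at the means of 3 libraries. The libraries of the genotypes lie close together at every peak, from 58 in Mrpl54 to 493 in Mrpl47, and single CtrlCre libraries stand low in Mrps30 (135) and Mrps36 (108).

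The largest positive difference, that of Mrps33 (chr6:39810065-39811253), a small subunit protein named here after its value was seen, came with overlapping groups. It read 80, 58 and 86 in CtrlCre and 80, 104 and 86 in Cpt1b cKO (0.28 ± 0.17 SE, limma adjusted p = 0.546). Its low value came from CtrlCre replicate 2, the library of least depth.

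Of the proteins with special roles, Mrpl58 was among the separated members above, and the groups overlapped at those that follow. Mrpl12 (chr11:120484135-120485993), part of the stalk that recruits translation factors and also described as a partner of the mitochondrial RNA polymerase, read 212, 219 and 233 in CtrlCre and 242, 264 and 227 in Cpt1b cKO, overlapping at 1 library (0.14 ± 0.10, limma adjusted p = 0.620). Mrps12 (chr7:28741058-28742517), which sits at the decoding centre, read 163, 119 and 131 against 148, 133 and 130 (0.003 ± 0.13). Mrps36 (chr13:100743417-100745003) carries a ribosomal name but is an adaptor of the 2-oxoglutarate dehydrogenase complex of the citric acid cycle, and read 168, 151 and 108 against 149, 135 and 130 (-0.02 ± 0.14). The groups overlapped at all 3.

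Mrps18a, Mrps18b and Mrps18c are related proteins that occupy different sites of the ribosome, Mrps18a in the large subunit. Mrps18a (chr17:46110606-46111881) read 147, 167 and 153 in CtrlCre and 165, 149 and 155 in Cpt1b cKO (0.01 ± 0.11 SE). Mrps18c (chr5:100798025-100799371) read 166, 177 and 144 against 188, 185 and 169 (0.16 ± 0.11). The wide peak over the start of Mrps18b, assigned to Ppp1r10, read 336, 344 and 425 against 322, 368 and 274 (-0.20 ± 0.11). The 3 thus had estimates on either side of 0, and the groups overlapped at each. Mrps30 (chr13:118386145-118387810), despite its name also a large subunit protein, read 202, 135 and 193 against 183, 195 and 203 (0.15 ± 0.13). Mrpl36 (chr13:73325710-73328918), the second widest member, read 148, 156 and 167 against 150, 174 and 137 (-0.04 ± 0.12), and the narrowest, Mrpl38, read 108, 98 and 80 against 84, 95 and 80 (-0.13 ± 0.15).

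Estimates were also close between subunits and origins. The median log2 difference was 0.008 for the large and 0.013 for the small subunit, 0.019 for proteins with a bacterial counterpart and -0.015 for those without. Across the members 36 estimates were above and 30 below 0. The median member value was 163.5, 157 and 152.5 in the CtrlCre libraries and 159, 164 and 149.5 in the Cpt1b cKO libraries, so that the order of libraries did not follow genotype. Relative to all tested peaks the members' median stood at 0.02, -0.01 and -0.04 in CtrlCre and at 0.02, 0.08 and -0.09 in Cpt1b cKO on the log2 scale, the highest and the lowest of the 6 both being Cpt1b cKO libraries.

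The other genes of mitochondrial translation and mitochondrial DNA expression were followed on a list of 89 genes, of which 66 were represented by tested peaks of that name (67 peaks). Names had to match as listed, so Twnk, whose start lies in the peak assigned to Peo1, was not counted. At an adjusted p under 0.05, 0 of these 67 peaks were higher and 0 lower, against 1.11% and 1.82% of all tested peaks. At an unadjusted p under 0.05, 1 was higher and 1 lower, against 5.84% and 6.98% of all tested peaks. Mars2, the mitochondrial methionyl-tRNA synthetase, read 178, 172 and 163 in CtrlCre and 224, 195 and 189 in Cpt1b cKO (log2 difference 0.24 ± 0.11 SE, limma adjusted p = 0.316). Cars2, the cysteinyl-tRNA synthetase, read 78, 100 and 67 against 53, 53 and 73, with overlapping groups (-0.44 ± 0.19, limma adjusted p = 0.297). Next by p stood Mpv17l2, a ribosome assembly factor whose weak second peak read 7, 9 and 13 against 16, 15 and 24 (limma adjusted p = 0.418), and Mtpap, the mitochondrial poly(A) polymerase, at 174, 170 and 173 against 191, 233 and 179 (limma adjusted p = 0.436). On the lower side Mtrf1l, a release factor, read 182, 230 and 224 against 192, 172 and 194 (limma adjusted p = 0.532), and Mterf3, which takes part in ribosome assembly, 266, 270 and 242 against 258, 216 and 221 (limma adjusted p = 0.544). Neither pair of groups was separated.

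By class, the list gave 16 peaks of tRNA synthetases and amidation enzymes with a median log2 difference of -0.03, 14 of translation factors with 0.05, 22 of assembly and rRNA modification factors with 0.06, and 11 of mitochondrial DNA expression with 0.02. The 4 tested peaks of ribosomal proteins under other names (Chchd1, Ptcd3, Gadd45gip1 and Aurkaip1) had differences of 0.01 to 0.09. Tfam, which packages mitochondrial DNA, averaged 165 in CtrlCre and 175 in Cpt1b cKO, and Polrmt, the mitochondrial RNA polymerase, 87.0 and 93.7.

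Other large protein complexes were set beside the members in the genotype comparison. At an adjusted p under 0.05, 0 of 67 OXPHOS peaks and 0 of 31 proteasome peaks were called in either direction, with median log2 differences of -0.002 and -0.001. Of all tested peaks, 1.11% were called higher and 1.82% lower. Cytosolic ribosomal proteins had a median of 0.11 over 68 peaks, with 62 estimates above 0, where 7702 of all 15039 tested peaks were above 0. At an unadjusted p under 0.05, 13 of the 68 were higher and 1 lower, against 5.84% and 6.98% of all tested peaks. With adjustment 0 of the 68 were higher and 1 lower, Rpl3l, a muscle-specific form of a cytosolic ribosomal protein, at 99, 102 and 137 in CtrlCre and 40, 52 and 23 in Cpt1b cKO (log2 difference -1.59 ± 0.23 SE, limma adjusted p = 0.000177). Under a variance model without trend the call of Rpl3l was lost and the count of 13 fell to 4. That count also fell to 4 without Cpt1b cKO replicate 2, to 5 without Cpt1b cKO replicate 1 and to 7 without CtrlCre replicate 2. The difference between the lists was not tested.

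In the mark itself the mitochondrial ribosomal peaks were narrower than the OXPHOS peaks, which had a median of 2531 bases and were broad in 56.7% of cases, and than the cytosolic ribosomal peaks with 1872.5 bases. Level per kb had a median of 108 in the members, 108 in proteasome peaks and 89.3 in OXPHOS peaks, with cytosolic ribosomal peaks between, in each case above the 60.5 of all tested peaks.

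**Figure D5:**
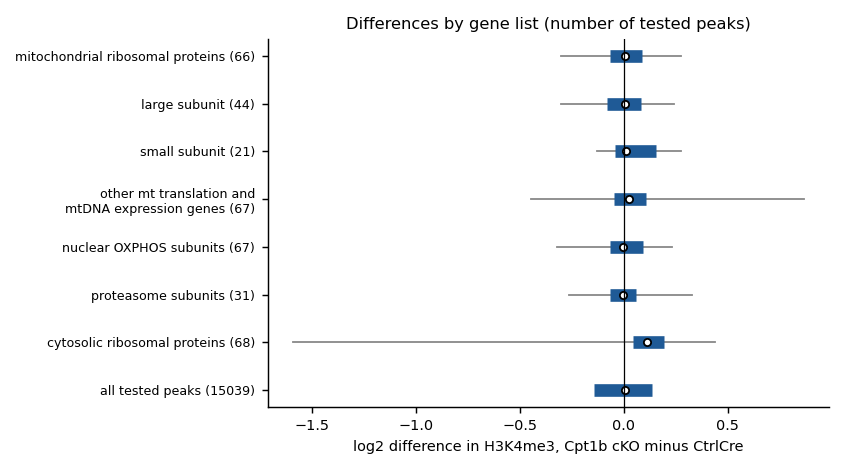
Log2 difference in H3K4me3, Cpt1b cKO minus CtrlCre (x axis), by gene list (y axis, number of tested peaks), with the median (white point), the quartiles (blue bar) and the full range (grey line, not drawn for all tested peaks). The members span -0.30 to 0.28 around a median of 0.008, and the range of the cytosolic ribosomal proteins reaches -1.59 through Rpl3l alone.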

How the data were processed

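H3K4me3 ChIP–seq and input libraries (3 each per genotype) were made from sorted adult CM nuclei. Per the labels and the study's methods, reads were trimmed (Trimmomatic 0.39), aligned uniquely to mm10 (STAR 2.6.1d), de-duplicated (Picard 2.21.7) and used to call MUSIC peaks against input (FDR 0.2), which were united and assigned to the nearest promoter within 5000 bases. The deposited value of a library in a peak is a score: the authors divided it by a DESeq2 1.26.0 size factor and rounded it. The authors also deposited the unrounded mean signal per genotype, the fraction of each peak inside its gene, and the distance of the peak centre to the start in bases. Their own comparison columns (fold changes and p-values) were not used, and input libraries entered no fit.

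From the means and rounded values the whole numbers before scaling were solved for (1 solution in 15848 of 15848 peaks), which gave the totals per library. The study's methods call the values per peak sample counts made with bigWigAverageOverBed, a tool that summarises coverage over regions. Whether 1 unit is 1 read was therefore not settled, and totals and counting errors hold only if it is. The test was limma 3.58.1 (R 4.3.3), two-sided, with trended variance, on log2(value + 1), with genotype only, over the 15039 peaks whose mean reached 10, and Benjamini-Hochberg adjustment over them. A fold on this scale understates the change of low peaks. The fit was tested on simulated data.

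The start of each assigned gene was taken from the authors' annotation. Neighbouring starts and the coding starts counted in a peak came from GENCODE vM21, and promoter windows from RefSeq. Both are on GRCm38.p6, whose primary coordinates are those of mm10. Peaks are given 1-based. The members and lists were chosen with earlier results of these data known. Genes were named by rule: adjusted p under 0.05; of non-overlapping members, the 6 of smallest p in each direction; the 3 highest, lowest, widest and narrowest; genes with 2 peaks; 8 genes of special role; and on the translation list the 3 of smallest p in each direction. The alternatives were other pseudocounts, filters, scalings, variance models, a GC correction, a replicate block and each library left out.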

Additional observations from a re-analysis of the deposited data

How the results depend on the processing

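In all 18 alternatives 0 of 66 member peaks had a limma adjusted p under 0.05 (smallest 0.266), and 0 of the 67 other translation peaks were called. At an unadjusted p under 0.05, 1 member was lower under a variance model without trend and 1 under the GC correction. With 1 library left out, 0 to 3 members were higher (3 without CtrlCre replicate 1, 2 without Cpt1b cKO replicate 3, 1 without CtrlCre replicate 2 or 3) and 0 to 2 lower (2 without CtrlCre replicate 1, 1 without Cpt1b cKO replicate 1). The median log2 difference stayed between -0.0245 and 0.0433. The sign was the same in every fit for 33 of 66 members. Estimates near 0 turned: Mrpl36 was 0.0070 with the GC correction, with or without the block, and Mrps12 was -0.0186 after quantile normalization, -6.7e-07 after rescaling, -0.076 by limma-voom and -0.0104 with the GC correction, with or without the block. Mrps18a was -0.0169 after quantile normalization. With 1 library left out, Mrpl32 ranged from -0.15 to 0.0083, Mrpl36 from -0.13 to 0.043, Mrps12 from -0.095 to 0.13, Mrps18a from -0.033 to 0.058, Mrps30 from -0.029 to 0.26 and Mrps36 from -0.21 to 0.11. The cause was not tested.

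Of the comparison lists, 2 peaks were called with a pseudocount of 5, a robust variance model or the GC correction, with or without the block, 0 without trend, and 1 to 3 with a library left out (3 without CtrlCre replicate 3). Cytosolic ribosomal protein peaks higher at an unadjusted p under 0.05 numbered 4 without trend and 4 to 14 with a library left out. TATAAA was in 1.75% of member windows from 100 bases before to 50 after the start. Deviations of same-numbered libraries had correlations of 0.08, -0.08 and 0.11, and those of unlike-numbered ones -0.16 to 0.11. No pairing by replicate number was seen, but this cannot tell whether same-numbered libraries were handled together. The replicate block left 0 members called, with 370 calls over all peaks against 441. Depth limits the precision most in CtrlCre replicate 2, where 3 of the recovered units correspond to a value of 6.97.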
